A study of Mus musculus with 6 samples.

Results

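Cytosolic ribosomal proteins are the protein parts of the small and large subunits of the ribosome that translates nuclear-encoded mRNA. Here they were taken as the array probes with a curated mRNA accession (NM_) whose gene name is Rpl or Rps with a number and at most one of the letters a, l or x, together with Rplp0, Rplp1, Rplp2 and Rpsa. The rule used names only and no measured value. It found 81 of 50090 gene names on the array, by 118 of 61307 probes. A single probe measured 51 of the genes, and 30 genes had 67 probes between them. The large subunit (Rpl and Rplp) had 72 probes for 49 genes and the small subunit (Rps and Rpsa) 46 probes for 32 genes. Another 8 probes carried such a name with another kind of accession and were not counted.

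The arrays compared lines made from NIH3T3, an established mouse fibroblast line, with 2 arrays per group. GFP cells carried green fluorescent protein alone and were the control. LT7 (long cells) and ST7 (small cells) carried SIRT7, a nuclear sirtuin best known from nucleoli, joined to GFP, and were picked by cell shape. All lines came from retroviral transduction with the vector pCX4Neo and had been grown out as single cell clones. The replicates were different passages of a clone, so p-values measure only the spread between passages, and clone and condition cannot be told apart.

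Ribosomal protein genes are among the most highly transcribed genes of a growing cell. Their mRNAs carry a terminal oligopyrimidine (TOP) tract at the start, through which the mTOR pathway tunes translation of the whole set. Most of the proteins are needed in equal numbers. Exceptions are a few tissue-restricted paralogs, such as Rpl3l of muscle and Rpl10l of testis, and proteins with a further role outside the ribosome, such as Rpl5 and Rpl11, which bind the p53 regulator Mdm2.

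The array sequences that the later results turn on are shown first, since different probes of a gene gave different values in ST7. All were read from the deposited array files, as printed there, and probes are lettered within a gene. Capitals mark the bases at which overlapping probes of a gene differ. In the stretch of Rpl36a probe B they mark AATAAA, the letters of the polyadenylation signal. Rpl29 probe A and Rpl34 probe A are printed from their first start codon on.
Rpl36a probe A: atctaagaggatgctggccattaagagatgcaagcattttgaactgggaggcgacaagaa
Rpl36a probe B: gacAATAAAatcttgacctttcaacccctt
Rpl7a probe A: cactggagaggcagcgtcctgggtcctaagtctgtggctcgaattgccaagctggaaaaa
Rpl7a probe B: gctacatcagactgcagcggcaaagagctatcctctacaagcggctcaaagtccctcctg
Rpl34 probe A: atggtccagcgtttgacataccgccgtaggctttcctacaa
Rpl34 probe B: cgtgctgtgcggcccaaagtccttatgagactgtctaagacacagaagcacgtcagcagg
Rpl7 probe A: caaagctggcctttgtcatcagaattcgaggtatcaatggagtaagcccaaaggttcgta
Rpl7 probe B: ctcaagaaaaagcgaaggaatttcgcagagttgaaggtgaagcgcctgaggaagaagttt
Rpl7 probe C: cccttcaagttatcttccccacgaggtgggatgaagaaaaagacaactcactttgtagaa
Rpl29 probe A: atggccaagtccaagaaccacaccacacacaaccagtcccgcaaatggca
Rpl29 probe B: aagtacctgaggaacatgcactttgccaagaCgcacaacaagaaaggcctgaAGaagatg
Rpl29 probe C: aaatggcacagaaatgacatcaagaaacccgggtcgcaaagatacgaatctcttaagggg
Rpl29 probe D: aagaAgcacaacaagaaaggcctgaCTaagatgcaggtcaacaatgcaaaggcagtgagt
Rps3a probe A: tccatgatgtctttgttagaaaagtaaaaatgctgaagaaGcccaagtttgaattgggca
Rps3a probe B: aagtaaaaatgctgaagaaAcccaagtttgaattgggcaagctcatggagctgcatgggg
Rpl36 probe A: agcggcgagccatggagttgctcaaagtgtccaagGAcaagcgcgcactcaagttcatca
Rpl36 probe B: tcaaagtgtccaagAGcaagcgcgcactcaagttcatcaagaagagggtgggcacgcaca

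Values are processed signals, the intensity of a probe after background subtraction by the scanner software, which also marked probes as well above background (called detected here) or as saturated, that is, at the upper limit of the scanner. A log2 change is the difference of group means of log2 signal after each array's 75th percentile was subtracted (the shift). For the GFP arrays that percentile was 384 and 323, for LT7 341 and 317 and for ST7 16.3 and 17.1. A probe with equal signals in both groups therefore received a log2 change of 0.10 in LT7 and of 4.40 in ST7. Over the whole array, 53.5% to 57.5% of probes were well above background in GFP, 47.4% to 47.5% in LT7 and 25.6% to 26.4% in ST7. The array's reading of the targeted gene did not follow the labels. Sirt7 read 3125 and 2480.2 in GFP and 3633 and 2782 in LT7, but 2.85 and 3.28 on the arrays labelled ST7, below detection. In LT7 its log2 change was 0.29, which did not pass the test at an adjusted p of 0.47 by limma. Whether this reading takes in the introduced SIRT7 or only the cell's own was not tested. Immunoblots of the study found SIRT7 joined to GFP in both LT7 and ST7, with no significant difference between them. The group names here stand only for the labels of the arrays.

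Markers of cell type shifted in ST7 as well. All 8 fibroblast markers were detected on both arrays of GFP and of LT7 and 4 of 8 on both ST7 arrays. Their summed signal was 313286 to 317116 in GFP, 315734 to 327365 in LT7 and 15055 to 16595 in ST7. Vim gave most of the ST7 sum, at 14612 and 16192. The 75th percentile of the whole array also fell, from 384 and 323 in GFP to 16.3 and 17.1 in ST7. Of 5 epithelial markers 2 were detected on both GFP arrays, 1 on both LT7 arrays and 3 on both ST7 arrays. Their summed signal was 105.2 to 177 in GFP, 102 to 155 in LT7 and 1897 to 2031 in ST7. Most of the ST7 sum came from Krt18, a keratin of simple epithelia. Epcam was detected only in ST7, at 86.7 and 94.0, and Cldn3 read 38.7 and 32.3 in GFP and 44.5 and 39.1 in ST7. Krt8, another keratin, went the other way, from 123 and 62.2 in GFP to 15.3 and 5.82 in ST7. Cdh1, the cadherin that defines epithelia, was detected on no array. Of 4 leukocyte markers 2 were detected on both arrays in GFP and in LT7 and 1 in ST7, with a summed signal of 137 to 181, 263 to 309 and 81.9 to 87.5, and of 3 endothelial markers none. The part of these shifts in the results was not tested. In such bulk RNA, fewer cells of a type and less RNA per cell cannot be told apart.

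In GFP cells most ribosomal protein genes had a probe near or at the upper limit of the scanner. There 116 of the 118 probes were well above background on each array, and 100 had a mean signal over 10000. On both GFP arrays 65 probes, of 54 genes, were saturated. The median signal of the 118 probes was 63240 and 62199 on the GFP arrays and 57269 and 62445 on the LT7 arrays, but 3107 and 3097 on the ST7 arrays.

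The only genes without a detected probe were the tissue-restricted paralogs Rpl3l and Rpl10l, whose probes were not detected on any of the 6 arrays. Rpl3l read 8.05 and 8.75 for GFP, 9.10 and 4.55 for LT7 and 3.86 and 7.51 for ST7. Rpl10l read 2.83 and 2.85 for GFP, 4.56 and 4.86 for LT7 and 2.89 and 3.43 for ST7. Their widely used counterparts were bright. Rpl3, at the peptidyl transferase centre, was saturated in GFP at 63997 and 62060.3, and Rpl10, needed for the final step of large subunit maturation, read 58245 and 53128. Another pair of paralogs was detected in GFP and LT7. Rpl39l, a paralog of Rpl39 best known from male germ cells, read 27675 and 30566 in GFP and 27980.1 and 23039.9 in LT7. Rps27l, a paralog of Rps27 and a p53 target, read 34859 and 40603 in GFP and 29966 and 30295 in LT7.

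**Figure D1:**
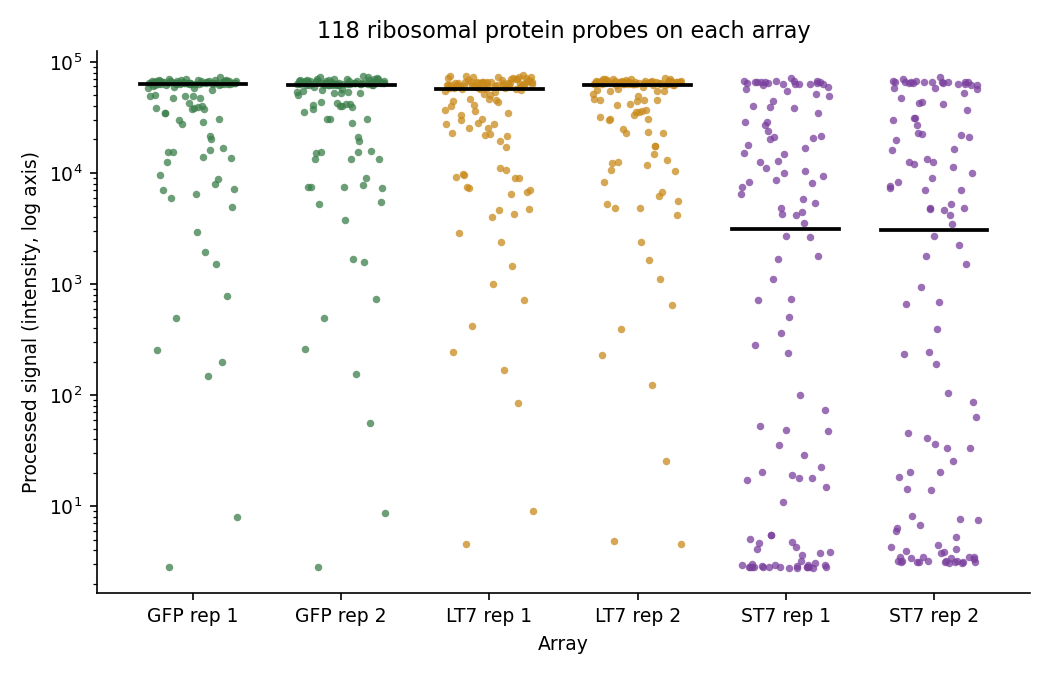
Processed signal (log axis) of the 118 ribosomal protein probes on each of the 6 arrays, 1 point per probe, with the black line at the median. The medians lie between 57269 and 63240 on the GFP and LT7 arrays and at 3107 and 3097 on the ST7 arrays, where the points spread over the whole scale.

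The comparison of LT7 with GFP asks whether ribosomal protein mRNAs differed in the long cells, and no probe passed limma's test. At an adjusted p under 0.05, 0 of the 118 probes were called higher, against 0.044% of all probes, and 0 lower, against 0.132%. At an unadjusted p under 0.05 there was 1, of the undetected Rpl10l. By a fold rule adapted from the study's methods 0 were up, against 2.9% of all probes, and 0 down, against 3.02%. The rule was read here on the log2 scale, as a ratio to the GFP mean of at least 0.8 on each array and a mean over 1, and mirrored below 0 for probes down. The median log2 change of the members was 0.02, with 65 above and 53 below 0 and a range from -1.09 to 0.83, and that of all probes was 0.17. Without GFP replicate 1 the members' median was -0.12, and without GFP replicate 2 it was 0.15. With saturated spots left out it was -0.22 over the 53 members still tested.

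A probe saturated in both groups cannot show a difference, and one saturated in either group shows only a limit, so the unsaturated probes are described on their own. On the GFP and LT7 arrays 49 probes, of 38 genes, were well above background and unsaturated throughout. This subset was formed after the values were seen and has no test. Of the 49, 41 (83.7%) were lower in LT7 after the shift and 8 higher, with a median log2 change of -0.23. The 25878 probes of the array measured in this way had a median of 0.03, and 47.0% of them were lower. For the 3574 of these with a GFP signal over 5000, the median was -0.01 and 51.2% were lower. Before scaling, both LT7 signals lay below both GFP signals for 38 of the 49 probes (77.6%), against 27.1% of all probes so measured and 38.2% of the bright ones. After the shift this held for 17 of 49 (34.7%), against 17.0% and 16.8%.

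The LT7 arrays did not contribute equally. Replicate 1 was alone in the second of 2 scans. On it the median log2 difference of the 49 probes from the GFP mean was -0.34 after the shift. On LT7 replicate 2, scanned with the GFP arrays, it was -0.12. Each replicate was lower for 40 of the 49 probes. Over the bright probes of the array the medians were 0.02 and -0.03. The part of the scan was not tested.

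Probes of both subunits read lower on the LT7 arrays. The third probe of Rpl7a read 30546 and 30817 in GFP and 8928 and 22879.5 in LT7, a log2 change of -1.004, and the unsaturated probe of Rps21, a small subunit protein, 37257 and 38946 in GFP and 10988 and 30377 in LT7, a log2 change of -0.96. Neither passed the test, with adjusted p of 0.41 and 0.34 by limma. Rpl4, which lines the peptide exit tunnel, read 13901 and 13421 in GFP and 4659.9 and 11716 in LT7. Its log2 change was -0.79 with SE 0.49 and an adjusted p of 0.39 by limma. The groups did not overlap, and replicate 1 was much the lower. All 4 probes of Rpl29, a large subunit protein also known to bind heparin, were lower on both LT7 arrays than on both GFP arrays. Rpl29 probe A read 13756 and 13343 in GFP and 6668 and 10402 in LT7, and probe D 2958 and 3767 in GFP and 1002 and 2367 in LT7. The log2 changes of the 4 probes ran from -1.02 to -0.60. None passed the test, with adjusted p from 0.27 to 0.31 by limma.

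In the small subunit, Rps3, which lines the mRNA entry, read 15559 and 15342 in GFP and 7354 and 12627 in LT7 by its unsaturated probe. Rpsa, the laminin receptor precursor, read 21482 and 20940.2 in GFP and 10691 and 17618 in LT7 by its brighter probe. Rps19, the gene most often mutated in Diamond-Blackfan anaemia, read 6486 and 7457 in GFP and 4012 and 4838 in LT7. All 3 were lower on both LT7 arrays, and none passed the test. The lowest log2 change, -1.09, belonged to the dimmer probe of Rps15a, whose groups overlapped at 199 and 55.9 in GFP and 84.2 and 25.4 in LT7. The highest of the 49 were the 2 probes of Rpl31, of the rim of the exit tunnel, at 0.21 and 0.23. The brighter read 5905 and 5300.2 in GFP and 7498 and 4871 in LT7, so these groups overlapped too.

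**Figure D2:**
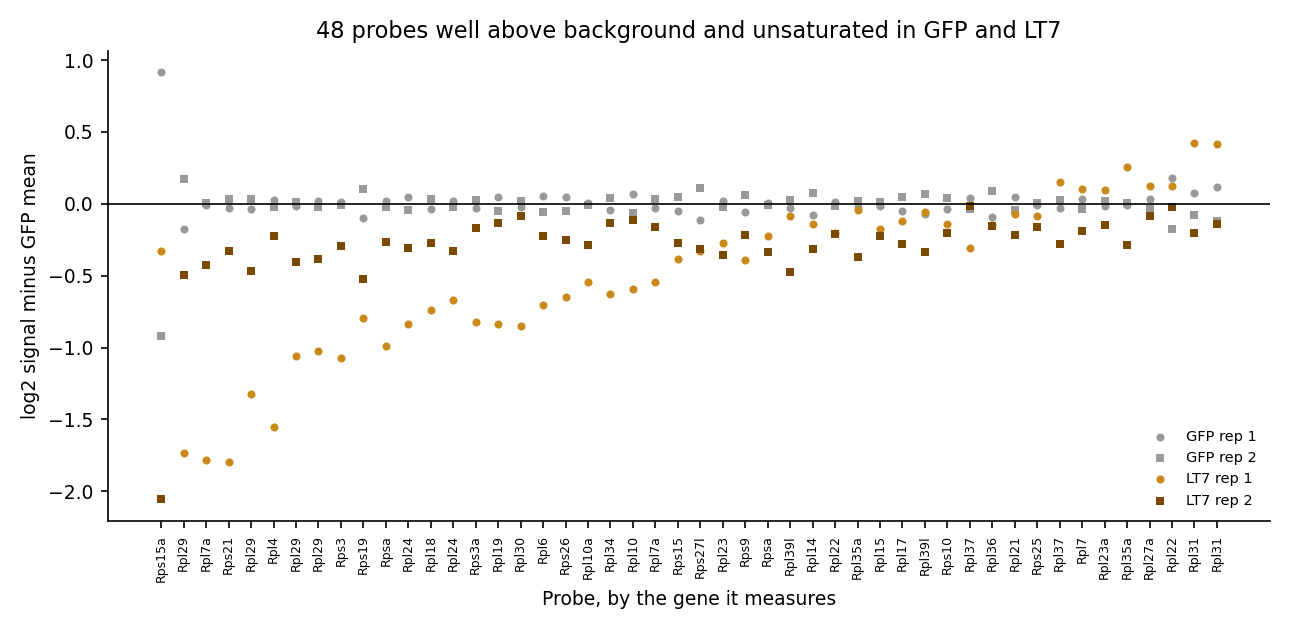
Log2 signal before scaling minus the GFP mean for 48 of the 49 probes that were well above background and unsaturated on all GFP and LT7 arrays, sorted by the LT7 mean, with 1 point per array and the gene under each probe. Both LT7 arrays lie below both GFP arrays for 37 of the 48 probes plotted.

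The comparison of ST7 with GFP asks the same of the arrays labelled as small cells against the same GFP arrays, and here the ribosomal protein probes fanned out over the whole range of the scanner. The mean ST7 signal was over 10000 for 45 of the 118 probes, from 1000 to 10000 for 19, from 100 to 1000 for 7 and under 100 for 47. In GFP these numbers were 100, 11, 5 and 2. On both ST7 arrays 81 probes were well above background, on 1 array 4 and on neither 33. By gene, 64 of 81 were detected on both ST7 arrays by at least 1 probe, against 79 in GFP. The median absolute log2 difference between the ST7 replicates was 0.09 over the 81 probes, with a highest of 0.88.

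Limma called 61 probes higher at an adjusted p under 0.05, against 70.7% of all probes, and 52 lower, against 19.8%. By the brightest probe of each gene these were 50 and 28 genes. The large subunit had 36 probes called higher and 35 lower, and the small subunit 25 and 17. The calls upward rest on the shift. Of the 61 called higher, 44 had both ST7 signals below both GFP signals, 14 overlapped and 3 were above. The 2 probes of Rpl3l and Rpl10l, detected on no array, were among the 61, and their genes among the 50. Rpl10l was also among the 3 above. Of the same 61, 39 were saturated on both GFP arrays, 16 of them on both ST7 arrays too, so that no fold can be given. Of the 52 called lower, 25 were saturated on both GFP arrays and 30 were dim on both ST7 arrays. By the fold rule 60 probes were up, against 70.9% of all probes, and 50 down, against 19.1%. The median log2 change was 1.22 over the 118 probes, with a range from -10.05 to 4.92, and 3.72 over all probes. Without scaling the members' median was -3.18, with 0 called higher and 86 lower, and that of all probes -0.68. With saturated spots left out only 52 members were tested. Their median was -1.27, with 21 called higher and 27 lower.

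The signal itself was lower in ST7 than in GFP for 107 of the 118 probes. Among 25 probes that were well above background and unsaturated on all GFP and ST7 arrays, the median log2 ratio of signals before scaling was -1.93, with a range from -10.41 to 0.52. More of the bright ribosomal protein probes than of the bright probes in general were still detected. Of the 100 members with a GFP signal over 10000, 78 (78%) were still detected on both ST7 arrays and 45 (45%) read over 10000 there, with a median of 7502. Of all 1076 probes with a curated mRNA accession and such a GFP signal, members included, these shares were 51.1% and 14.3%, with a median of 20.2. The 2 sets were matched only by the limit of 10000 and not by signal above it. On both GFP arrays 65 of the 118 members were saturated. The comparison is a description and was not tested.

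**Figure D3:**
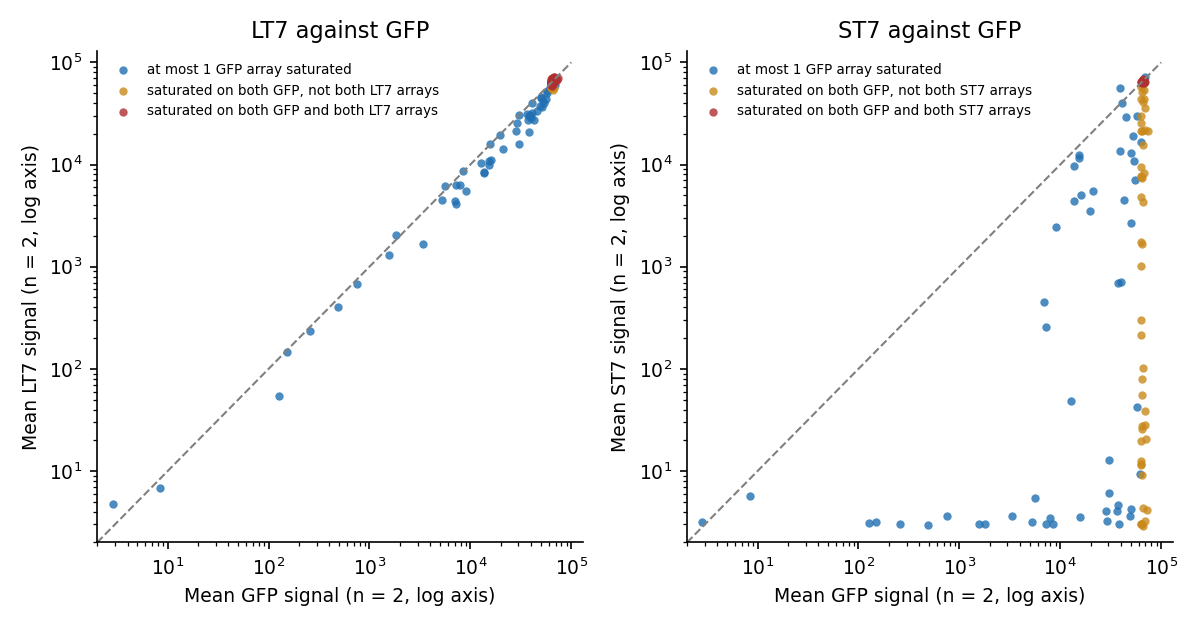
Mean processed signal of each of the 118 probes in LT7 (left) and ST7 (right) against GFP, both axes logarithmic, n = 2 arrays per mean, with the dashed line at equal signals and colours for saturation. In LT7 the probes stay near the line, and in ST7 they range from the upper limit of the scanner down to background, with 47 of the 118 under 100.

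The upper end held proteins of both subunits. On all 6 arrays 16 probes were saturated, among them those of Rpl5, Rpl7a, Rpl12, Rpl19, Rplp1, Rplp2, Rps7, Rps14, Rps16 and Rps20 and both probes of Rps2 and of Rps18. Rpl5, which carries 5S rRNA into the ribosome, read 63792 and 62138 in GFP and 64559 and 63482 in ST7. Rps2, which lies at the mRNA entry, read 66283 and 67122 in GFP and 66431 and 70657 in ST7 by its brighter probe. Such probes cannot show a change in either direction. Rpl11, the partner of Rpl5 in the 5S particle, read 67055 and 66483 in GFP and 66839.8 and 66092 in ST7, saturated on 5 of 6 arrays. Rps6, the substrate of S6 kinase, was saturated in GFP at 67021 and 67472 and read 49136 and 57072 in ST7. Rpl15, a core protein of the large subunit, had the highest log2 change by brightest probe among detected genes, at 4.46. It was not marked as saturated in GFP, at 68060.0 and 69464, but was in ST7, at 71123 and 72625.

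Of the probes measured without saturation on the GFP and ST7 arrays and well above background, 1 had both ST7 signals above both GFP signals. It was probe A of Rps3a, of the platform of the small subunit. On the ST7 arrays it read 54943 and 58503, against 38788 and 40196 for GFP and 22291 and 35129.9 for LT7. The log2 change after the shift was 4.92 with SE 0.31 and limma gave an adjusted p of 4.1e-05. Without scaling it was 0.52, with an adjusted p of 0.20 by limma. Probe B of Rps3a, which overlaps it by 39 bases of which 1 differs (the capitals above), was saturated in GFP at 62528 and 64076 and read 21649 and 21054 in ST7. So overlapping stretches of the same gene differed in the direction of the signal, though the rise of probe A did not pass the test without scaling. The third probe of Rps3a, with a mean of 66915 in GFP, also read lower in ST7.

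The lower end reached background, for Rpl39, Rps4x and Rpl30 by the only probe of the gene. By brightest probe, the genes with the lowest log2 changes included Rpl39, Rps4x, Rpl30, Rpl39l and Rps27. Rpl39, a small protein of the exit tunnel, read 63689.9 and 61993 in GFP and 2.83 and 3.19 in ST7, at least 384-fold lower after the shift, with a log2 change of -9.95, SE 0.20 and an adjusted p of 1.7e-05 by limma. Rps4x, the X-linked member of the Rps4 family, read 68091 and 75248 in GFP and 2.97 and 5.30 in ST7, at least 437-fold lower. Neither was well above background on an ST7 array.

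Rpl30, which lies at the interface of the subunits, was unsaturated at 48849 and 50285 in GFP and 27496 and 46692 in LT7, and read 2.96 and 4.29 in ST7, at least 303-fold lower than in GFP. Rpl39l read 2.97 and 3.47 in ST7, at least 178-fold lower, so that neither Rpl39 nor its paralog was detected. Rps27 was saturated in GFP at 65139 and 64583 and read 15.01 and 3.47 in ST7, detected on 1 of the 2 arrays, with a log2 change of -8.73. Its paralog Rps27l kept a signal of 723 and 656, a log2 change of -1.37 with an adjusted p of 0.003 by limma. The adjusted p by limma was 1.0e-04 for Rps27 and 1.7e-05 for each of Rps4x, Rpl30 and Rpl39l.

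Probes of the stalk genes lay at opposite ends of the scale in ST7, each gene read by a single probe. Of the stalk, which recruits translation factors, Rplp1 and Rplp2 stayed saturated, at 65176 and 64211 and at 65533 and 66520.0 in ST7. Rplp0, which anchors them on the ribosome, was saturated in GFP at 65307 and 64211 and read 18.005 and 33.2 in ST7, at least 126-fold lower, with an adjusted p of 1.7e-05 by limma. Rpsa, which binds the small subunit late in its assembly, read 5818 and 5293 in ST7 by its brighter probe, below GFP in signal, while the shift gave a log2 change of 2.46. Its dimmer probe fell from 495 and 491 to 2.82 and 3.15, at least 3.01-fold lower.

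In ST7 probes of the same gene gave opposite answers. For 14 of the 30 genes with several probes, 1 probe was called higher and another lower. Such genes were not counted over the whole array, where 70.7% of probes were called higher and 19.8% lower. Rpl36a, of the tRNA exit site, had the widest split. All 3 of its probes were saturated in GFP, with mean signals from 62501 to 65519. In ST7 probe A read 57410.4 and 57610.4, while probe B read 2.77 and 3.08 and the third probe, which shares 40 bases with probe B, 2.85 and 3.19. Probe B, which holds AATAAA, was at least 400.1-fold lower, with a log2 change of -10.05. For Rpl7a, another large subunit protein, probe A was saturated on all 6 arrays. Probe B of Rpl7a read 39582 and 41338 in GFP and 729 and 695 in ST7, and the third probe 30546 and 30817 in GFP and 18.1 and 7.62 in ST7.

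Rpl34, Rpl23 and Rps21 parted in the same way. Probe A of Rpl34 read 37894 and 40216 in GFP and 14662 and 12562 in ST7. Probe B was saturated in GFP at 63468 and 61876 and read 5.03 and 18.3 in ST7. For Rpl23, of the subunit interface, 1 probe was saturated in GFP and read 44755 and 43529 in ST7, and the other read 7990.2 and 7781 in GFP and 2.86 and 4.16 in ST7. For Rps21 the saturated probe read 7421 and 7332 in ST7, and the other read 37257 and 38946 for GFP, 10988 and 30377 for LT7 and 2.90 and 3.13 for ST7. These 5 genes had the widest ranges of log2 change between probes, from 10.51 for Rps21 to 14.33 for Rpl36a.

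Rpl7, a large subunit protein, showed a graded split. Its probes A and C were saturated in GFP, and in ST7 probe A read 20027 and 22764 and probe C 73.2 and 86.8. Probe B was unsaturated, at 20399 and 19390.5 for GFP, 21328 and 17444 for LT7 and 3513 and 3503 for ST7. The log2 change of this probe was 1.90 with SE 0.20 and limma gave an adjusted p of 3.3e-04, while without scaling it was -2.50. The 4 probes of Rpl29, all unsaturated, had mean GFP signals from 3363 to 13549. In ST7 probe A read 9361 and 9899, probe B 2659 and 2229, probe C 283 and 234 and probe D 2.78 and 4.45. Probes B and D overlap by 33 bases and differ at 3 of them. The log2 change was 3.91 for probe A, 2.51 for probe B, -0.42 for probe C, which did not pass the test at an adjusted p of 0.33 by limma, and -5.49 for probe D. Probe C was called lower under 4 alternatives, among them at -4.82 without scaling.

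Another overlapping pair lay closer together. Rpl36 probes A and B overlap by 39 bases with 2 differences. Both fell to background, probe A from 62491 and 59818 to 4.68 and 14.2 and probe B from 47259 and 53635 to 4.73 and 3.82.

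The spread between probes of a gene was small in LT7, and in ST7 it was of the size seen over the whole array. For the 30 ribosomal protein genes with several probes, the median range of log2 change between probes was 0.17 in LT7 and 3.47 in ST7. For 4442 genes of the array with several probes well above background in GFP and a curated accession it was 0.29 in LT7 and 3.38 in ST7. In ST7 10 of the 30 genes (33.3%) had a probe well above background on both arrays and another on neither, against 38.7% of the 4442 genes and 46.2% of 26 mitochondrial ribosomal protein genes.

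**Figure D4:**
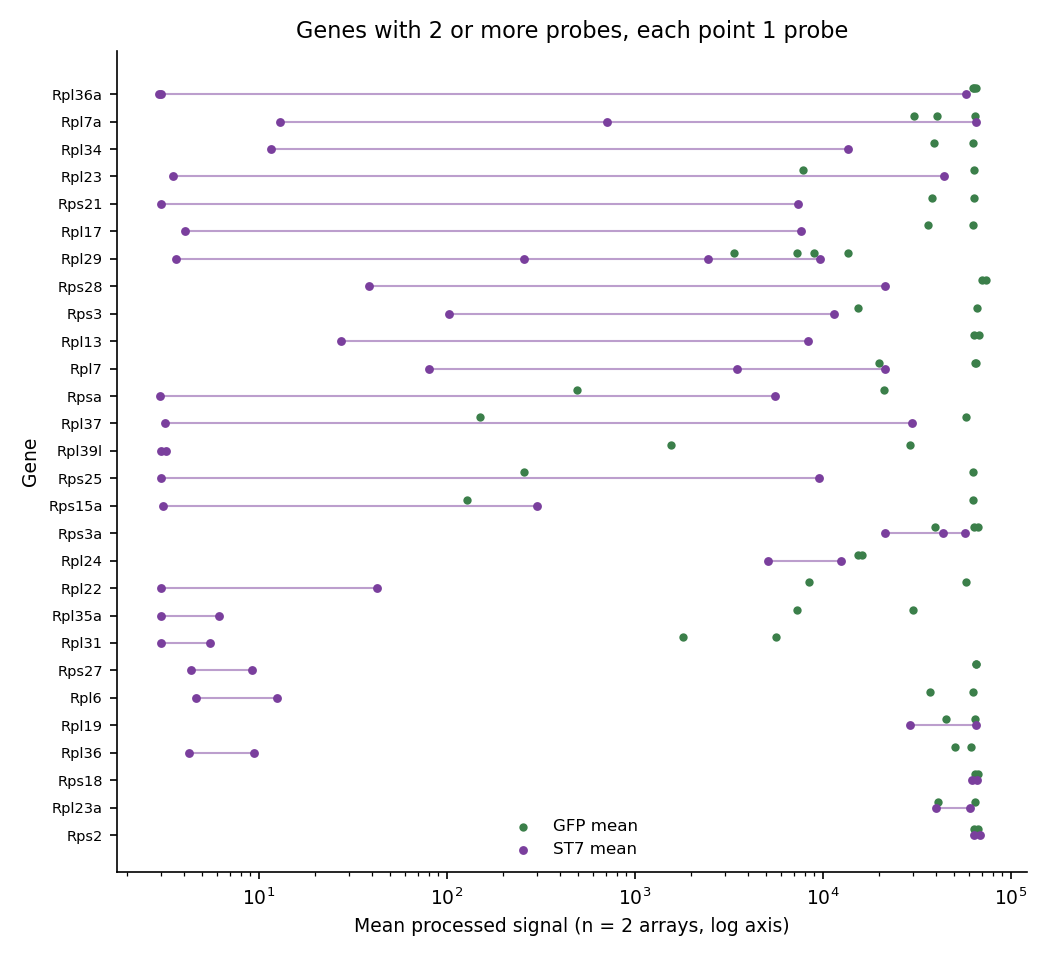
Mean processed signal (log axis, n = 2 arrays) of each probe of 28 of the 30 genes with 2 or more probes in GFP and in ST7, sorted by the range of log2 change between probes in ST7. The ST7 points of Rpl36a, with the widest range, run from 2.93 to 57510.4.

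With the arrays centred on the median of 25 ribosomal protein probes, limma tested which members moved away from the rest. In LT7 it called 0 of the 118, against 0.103% of all probes. In ST7 against GFP it called 104, against 84.9% of all probes, and in ST7 against LT7 101, against 82.1%.

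The comparison of ST7 with LT7 sets the long and small cells side by side, and shares the ST7 arrays with the comparison above. Limma called 62 probes higher in ST7, against 71% of all probes, and 52 lower, against 19.7%. Of the 62, 2 were dim in both groups. The median log2 change was 1.32 over the 118 probes and 3.59 over all probes. With only probes detected on both arrays of any group kept, these medians were 1.15 and 0.85. The signal was lower in ST7 for 104 of the 118 probes. Without scaling the members' median was -2.98, with 1 called higher and 86 lower, and that of all probes -0.71. At the lower end Rpl39 was at least 413-fold lower than in LT7, Rps4x at least 436-fold and Rpl30 at least 234-fold. Rps3a probe A had a log2 change of 5.32.

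Features of the probe sequence and the ST7 signal varied together. The letters AATAAA, searched on the strand of the probe as printed, were present in 19 of the 118 probes (16.1%) and in 5.49% of all probes with a curated mRNA accession. In ST7 9 of the 19 were detected on both arrays, with a median signal of 9.24, against 72 of the other 99, with a median of 5556. Over all probes with a curated accession that were well above background in GFP, the shares detected on both ST7 arrays lay closer together. They were 28.9% with AATAAA and 33.8% without. In 14 members no reading frame was free of stop codons, and 7 of these (50%) were detected on both ST7 arrays. Of the other 104 members 74 (71.2%) were. Over the same wider set of probes these shares were 18.2% and 36.9%. The share of G and C was under 50% in 82 members, of which 49 (59.8%) were detected on both ST7 arrays. It was 50% or more in 36, of which 32 (88.9%) were. Over all probes with a curated accession that were well above background in GFP these shares were 27.6% and 56.2%. Several RefSeq accessions were listed for 76 members (64.4%), against 20.1% of all probes with a curated accession. Whether the accessions of a probe belong to 1 gene was not tested. Of the 76, 58 (76.3%) were detected on both ST7 arrays, and of the other 42, 23 (54.8%). Over all such probes detected in GFP these shares were 37.7% and 32.4%. In LT7 the median log2 change was 0.04 with AATAAA and 0.02 without, and 0.03 and -0.04 for the lower and higher G and C share. These are descriptions over probes, many of which share a gene.

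Other genes of translation were taken from lists, each gene by its brightest probe. In LT7 0 genes of these lists passed limma's test, against 0.044% of all probes called higher and 0.132% lower. The list medians lay between -0.11 and 0.08. In ST7 the counts below stand beside 70.7% of all probes called higher and 19.8% lower. Equal signals in both groups give a log2 change of 4.40 there. Of 6 ribosomal proteins outside the name pattern, 2 were called higher and 3 lower in ST7, with a median log2 change of -2.50. Gnb2l1 (RACK1), a scaffold on the small subunit, was saturated in GFP at 68282 and 71876 and read 33004 and 29983 in ST7. Fau, a ubiquitin-like fusion that yields a small subunit protein, was saturated in GFP at 70524 and 72706 and read 34.1 and 43.2 in ST7.

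Of 8 elongation factors 6 were called higher and 2 lower in ST7, with a median of 4.35, where equal signals give 4.40. Eef1e1, an accessory protein of aminoacyl-tRNA synthetases, read 2553 and 2979.6 in GFP and 3289 and 3602 in ST7. Eef2, which moves the ribosome along the mRNA, read 65621 and 58411 for GFP, 30058 and 54591 for LT7 and 14659.5 and 10438 for ST7. Of 28 initiation factors 17 were called higher and 11 lower, with a median of 2.37. Eif4g1, the scaffold of the cap complex, read 7553 and 6935 in GFP and 10296 and 11239.9 in ST7, and Eif3b, of the complex that binds the small subunit, 31929 and 35668 in GFP and 110.3 and 103 in ST7.

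Of 6 other TOP mRNAs 2 were called higher and 3 lower, with a median of -0.67. Npm1, a nucleolar chaperone, read 63343 and 62313 in GFP and 40135 and 45820.5 in ST7, and Hnrnpa1, a splicing regulator, 38155 and 42537 in GFP and 59.02 and 42.6 in ST7. Of 10 regulators of translation and ribosome synthesis 3 were called higher and 6 lower, with a median of -4.27. Rps6kb2, a kinase of Rps6, read 206 and 147 in GFP and 741 and 698 in ST7. Tsc2, which restrains mTOR, read 7197 and 6586 in GFP and 14.5 and 19.6 in ST7. Of 75 mitochondrial ribosomal proteins, which form another ribosome, 15 were called higher and 59 lower, with a median of -4.80, against 2.44 for the 81 cytosolic genes by brightest probe. On both ST7 arrays 21 of the 75 were detected, against 64 of the 81 cytosolic genes, but in GFP 0 of the 75 were saturated, against 52 of the 81.

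**Figure D5:**
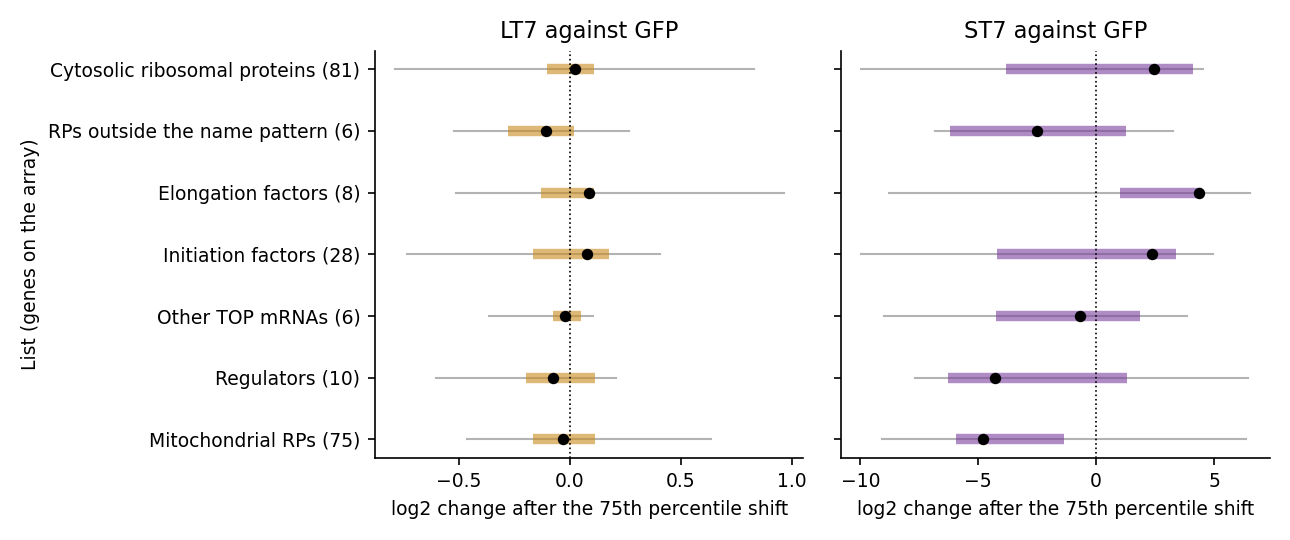
Log2 change after the 75th percentile shift in LT7 and ST7 against GFP for the cytosolic ribosomal proteins and 6 other lists, each gene by its brightest probe. In LT7 the medians lie between -0.11 and 0.08. In ST7 they run from -4.80 for the mitochondrial to 2.44 for the cytosolic ribosomal proteins and 4.35 for elongation factors. Equal signals give 4.40 in ST7.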

How the data were processed

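RNA of GFP, LT7 and ST7 cells (n = 2 each) was amplified from an oligo-dT primer, labelled with Cy3 and hybridised to 6 one-colour Agilent arrays. The deposited scanner files give each spot's processed intensity, with background already subtracted by Agilent Feature Extraction 10.5.1.1. The deposited series matrix holds log2 values after a percentile shift by the authors. With an offset per array removed, at most 13 probes per array differed from the scanner values by more than 0.01. Here outlier spots were left out, spots of a probe averaged, log2 taken and each array's 75th percentile subtracted. All 6 arrays entered one limma fit (limma 3.58.1, R 4.3.3), which was tested on simulated data, and p-values were adjusted by Benjamini-Hochberg across the array. A fold is "at least" where a group was saturated on both arrays or dim on both, a dim group standing at the lowest signal well above background on each array, and none is given where neither group was measured. The number of arrays limits the precision. Alternatives changed the scaling, background correction, filters, spots, source table, replicates and replicate block.

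The members and lists were chosen with earlier results of these data known. Named genes were, by brightest probe, the highest and lowest 6 in ST7, undetected genes, paralog pairs, stalk proteins, Rpsa, Rps6, Rpl5 and Rpl11, the 5 genes with the widest spread between probes, the most often saturated, and per other list the highest and lowest detected on all arrays. Rpl4, Rpl29, Rpl31, Rpl36, Rps3, Rps3a, Rps15a and Rps19 were chosen after their values were seen. All 82 member accessions were found in a mouse reference table, where Rps3a is Rps3a1. Some member genes that these rules name are not reported here singly and are left out of plots that label genes.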

Additional observations from a re-analysis of the deposited data

How the results depend on the processing

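Under the alternatives 142 summary results stayed close to the main value, and 217 results of single probes kept their direction and side of the threshold. For counts of called probes, close meant within a fixed factor of the main count, and for medians, within the spread between replicates. Of the rest, 15 summary and 8 single probe results turned in direction. Another 10 and 4 became weaker, 3 and 4 stronger, and 5 summary results moved by more than that spread. In LT7 against GFP the members' median log2 change of 0.02 became -2.15 with scaling on 4 spike-in RNAs and -0.22 with saturated spots left out, and also changed sign, within that spread, to -0.08 without scaling and -0.09 with quantile normalization. It ran from -0.12 to 0.15 as each array was left out. The median of all probes, 0.17 in this comparison, became -2.00 with spike-in RNAs and 0.18 with saturated spots left out. It became 0.07 without scaling and 0.02 with quantile normalization. In ST7 against GFP the median of 1.22 became -3.18 without scaling, -0.72 with a percentile over only probes detected on every array, -0.65 with quantile normalization, -3.01 with spike-in RNAs, -0.59 with normexp, 0.92 with a filter on dim probes, -1.27 with saturated spots left out and 2.44 with the brightest probe of each gene. The 61 called higher became 0 without scaling, 18 with quantile normalization, 0 with spike-in RNAs and 21 with saturated spots left out, and the 52 called lower 86 without scaling and 27 with saturated spots left out. Within the fixed factor, the 61 also became 46 with the percentile over detected probes and 49 with normexp. The 52 became 62 and 60. The median of all probes, 3.72 in ST7 against GFP, became -0.68 without scaling, 1.78 with that percentile and 0.37 with quantile normalization. It became -0.51 with spike-in RNAs, 2.23 with normexp, 0.71 with the filter and 3.75 with saturated spots left out. In ST7 against LT7 the members' median was 1.32. In the order of the members' medians above, it became -2.98, -0.60, -0.44, -0.74, -0.39, 1.15, -0.45 and 2.50. It ran from 1.20 to 1.46 as each array was left out. The median of all probes was 3.59. In the same order up to saturated spots, it became -0.71, 1.66, 0.33, 1.53, 2.15, 0.85 and 3.59. The 62 called higher became 1, 21, 0 and 27, and the 52 called lower 86 and 31. With saturated spots left out fewer members were tested. They numbered 53 in LT7 against GFP, 52 in ST7 against GFP and 62 in ST7 against LT7. Members called away from their own median numbered 0 to 1 in LT7 against GFP as each array was left out, the 1 arising without LT7 replicate 2.

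The ST7 change of Rpl7 probe B turned to -2.50 without scaling, -0.042 with the percentile over detected probes, -2.34 with spike-in RNAs and -0.031 with normexp, that of Rpl29 probe A to -0.49 without scaling and -0.33 with spike-in RNAs, and that of Rpl29 probe B to -1.88 and -1.72. Rpl29 probe C, not called at -0.42, was called lower at -4.82 without scaling, -2.36 with the percentile over detected probes, -4.65 with spike-in RNAs and -2.14 with normexp. The cause of these changes was not tested. Rpl39, Rps4x, Rpl30, Rpl39l, Rps27, Rpl36a probe B and Rpl29 probe D kept their direction and their side of the threshold under every alternative run. Same-numbered samples did not deviate together over all probes (correlations of 0.08, 0.04 and -0.02). With 2 arrays per group and many undetected probes, this cannot exclude that the numbers pair the samples. With the replicate block the calls were 61 higher and 52 lower in ST7 against GFP, 62 and 52 in ST7 against LT7, and 0 and 0 in LT7 against GFP, and 97 and 94 members were called away from their median in ST7, against 104 and 101 without it. Saturation hides differences at the top of the scale, and background those at the bottom.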
